A study of Mus musculus with 4 samples.

Results

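Expression of 10 mouse genes of glutathione, thioredoxin and NADPH redox chemistry was followed in macrophages cultured with interleukin-4 (IL-4). The genes were Nfe2l2, Gclm, Gclc, Gsr, Txnrd1, Srxn1, Slc7a11, Nqo1, Prdx1 and Nnt. They were taken from the deposited table by symbol, and all 10 were among its 14936 genes. The macrophages were grown from bone marrow with M-CSF at 20 ng/ml and then given IL-4 at 20 ng/ml, an agent that every library shared. Cells labelled wild type (WT) and cells labelled Phlpp1-deficient (KO) were collected after 12 h and after 24 h of IL-4. Every combination of label and time had 1 library, 4 in all, and no untreated cells were analysed here. The Phlpp1 allele, the mouse strain, the animals' age and number and any pooling are not stated in the sources used, so the spread between libraries may be technical.

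Glutathione is the main small thiol of the cell, and thioredoxin is a small protein with the same kind of reducing power. Both are recharged by reductases that take electrons from NADPH, and both are used by peroxidases to remove hydrogen peroxide. The transcription factor NRF2, encoded by Nfe2l2, is held back by KEAP1 and, when released, binds antioxidant response elements beside genes that make and recycle these thiols. Macrophages use the system to survive the oxidants they make and to handle heme and iron from the cells they engulf.

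Total counts ran from 36707999 to 41770309 per library. Depth-scaled counts (CPM) below are scaled by the trimmed mean of M values, and FPKM values are the authors' own. The targeted gene, Phlpp1, went against the labels. It had 11.9 CPM at 12 h and 15.6 at 24 h where the label was WT, against 42.9 and 62.6 CPM where it was KO. Directions below follow the labels, and gene counts do not show which cells lacked the protein. Of 8 macrophage markers 4 were called lower for KO and 0 higher, with summed levels of 20525 to 21771 CPM in the WT libraries and 16847 to 17809 CPM in the KO libraries. Of 7 neutrophil markers tested 5 were lower for KO (951 to 1045 against 675 to 790 CPM summed over 9 markers), and of 7 stromal markers tested 6 were higher (93.1 to 109 against 150.1 to 179.8 CPM summed over 9 markers). Of 3 mast cell and basophil markers tested 2 were lower (8.26 to 9.49 against 3.97 to 4.99 CPM summed over 5 markers). Beside these counts, 5.34% of all genes tested were called lower for KO and 4.18% higher. Lymphocyte markers summed to at most 1.87 CPM in any library and erythroid markers to at most 0.968 CPM. Ncr1 of the lymphocyte list and Alas2 of the erythroid list had 0 counts in at least 1 library. So did Ly6g among the neutrophil markers, although that list summed to at least 675 CPM in every library. The part of these other cells in the redox results was not tested. In such bulk RNA, fewer cells of a type and less RNA per cell cannot be told apart.

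Promoter sequences are shown because several of the genes differed in the same direction and because NRF2 acts through a known short element. RefSeq windows on GRCm38.p6, from 250 bases before to 50 bases after a start site, matched 7 of the 10 genes by symbol, with 9 windows. Windows of Gclc, Gsr and Nnt are not used here. The letters TGACNNNGC, the core of the antioxidant response element, were searched on both strands. They were found once each in windows of 5 of these 7 genes, namely Gclm, Prdx1, Txnrd1, Nfe2l2 and Srxn1. None of the windows of Slc7a11 and Nqo1 held them. Sites outside the windows and other spellings of the element were not searched. Over all RefSeq windows 4038 of 32544 held the letters (12.4%), and over all symbols 3748 of 26742 did (14%). The 3 sequences below are the 250 bases before the start site of Gclm, Prdx1 and Txnrd1, the genes called both for genotype and for time, with the matched letters in capitals.
Gclm, chr3:122245307-122245556, plus strand: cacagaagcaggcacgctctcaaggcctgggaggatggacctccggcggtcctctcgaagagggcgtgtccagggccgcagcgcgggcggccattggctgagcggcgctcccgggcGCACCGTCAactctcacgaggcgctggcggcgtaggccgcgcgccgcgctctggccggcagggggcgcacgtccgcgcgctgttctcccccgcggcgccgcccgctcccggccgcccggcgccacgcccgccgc
Prdx1, chr4:116685349-116685598, plus strand: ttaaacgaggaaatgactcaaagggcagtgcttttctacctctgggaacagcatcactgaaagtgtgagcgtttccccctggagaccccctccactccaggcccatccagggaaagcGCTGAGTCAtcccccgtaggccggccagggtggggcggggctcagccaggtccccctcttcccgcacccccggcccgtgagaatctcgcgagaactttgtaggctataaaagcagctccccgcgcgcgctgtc
Txnrd1, chr10:82858956-82859205, plus strand: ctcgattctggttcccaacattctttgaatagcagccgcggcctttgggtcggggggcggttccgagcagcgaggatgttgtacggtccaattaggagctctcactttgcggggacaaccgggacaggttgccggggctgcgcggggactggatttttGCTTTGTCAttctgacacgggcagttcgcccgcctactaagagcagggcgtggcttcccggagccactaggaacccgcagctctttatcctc
The capitals in all 3 lie on the opposite strand, so the element is read as TGACGGTGC in Gclm, TGACTCAGC in Prdx1 and TGACAAAGC in Txnrd1. Their first base lies 134, 133 and 92 bases before the start site in that order. The Prdx1 match overlaps the letters TGACTCA, which AP-1 factors also bind and which 1690 of 32544 windows held (5.19%). The Txnrd1 match is in 1 of its 3 windows. Nfe2l2 held TGACTCCGC 240 bases before its start. Srxn1 held TGACCTAGC on the opposite strand, in letters that begin at base 29 of its transcript. These are matches of letters, not measured binding.

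**Figure D1:**
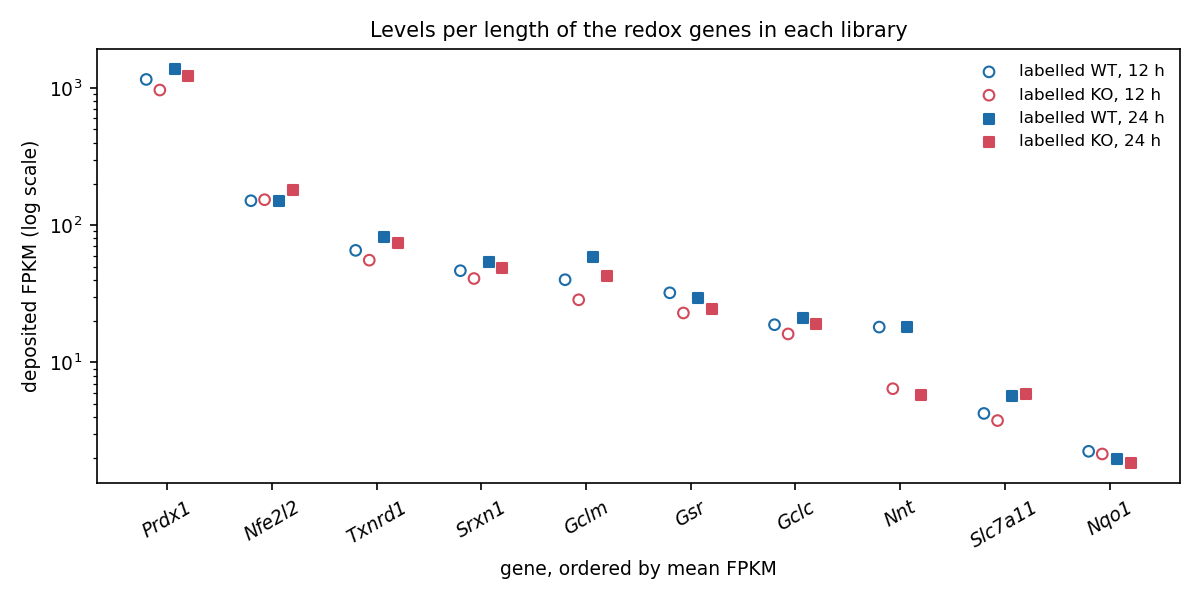
Deposited FPKM on a log axis for each of the 10 redox genes, ordered by mean FPKM, with 1 point per library. Prdx1 lies between 965 and 1374 FPKM in the 4 libraries and Nqo1 between 1.84 and 2.25 FPKM.

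Per length, Prdx1 was the most abundant of the 10 and Nqo1 the least, as the plot of deposited FPKM shows. Prdx1, a peroxiredoxin that reduces hydrogen peroxide with electrons from thioredoxin, had 965 to 1374 FPKM. Nfe2l2 followed at 150.3 to 181 FPKM, Txnrd1 at 55.6 to 81.7 FPKM and Srxn1 at 40.9 to 54.1 FPKM. The ranges of Srxn1, Gclm (28.6 to 59.0 FPKM) and Gsr (22.9 to 32.2 FPKM) overlapped from each gene to the next. Gclc (16.1 to 21.1 FPKM), Nnt (5.81 to 18.1 FPKM) and Slc7a11 (3.77 to 5.90 FPKM) likewise overlapped from each to the next. Prdx1, Nfe2l2, Txnrd1, Gsr and Slc7a11 each stood apart from the next gene down in this order. Nqo1, a quinone reductase often used as an NRF2 marker, had 148 to 206 counts per library, or 1.84 to 2.25 FPKM.

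Across both times, 6 of the 10 genes were called lower for KO and 0 higher, by edgeR's quasi-likelihood test in a model of genotype plus time. Over all 10993 genes tested, 5.34% were called lower and 4.18% higher. The 6 were Nnt, Gclm, Gsr, Prdx1, Txnrd1 and Srxn1. The median fitted log2 fold over the 10 genes was -0.24, and -0.24 without Nnt, beside -0.0025 over all genes tested. Across both genotypes, 4 of the 10 were higher at 24 h than at 12 h and 0 were lower, beside 0.955% and 1.13% of all genes. The 4 were Gclm, Slc7a11, Txnrd1 and Prdx1, and the median log2 fold for time was 0.23 over the 10 genes and -0.0044 over all genes tested. With only genotype in the model, 2 genes, Gsr and Nnt, were called for genotype. Dropping a library from that fit gave 2 calls without WT 12 h, 2 without KO 12 h, 1 without WT 24 h and 7 without KO 24 h, and the 1 was Nnt. With only time in the model 0 of the 10 were called for time, and 0 of all 10993 genes tested were. In that fit 367 of all genes had an unadjusted edgeR p under 0.05. DESeq2 with both terms called 4 of the 10 for time. Where a library is left out of a fit with 1 term, the design is unbalanced. Part of the other term then enters the fold, so such folds and calls mix genotype with time.

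**Figure D2:**
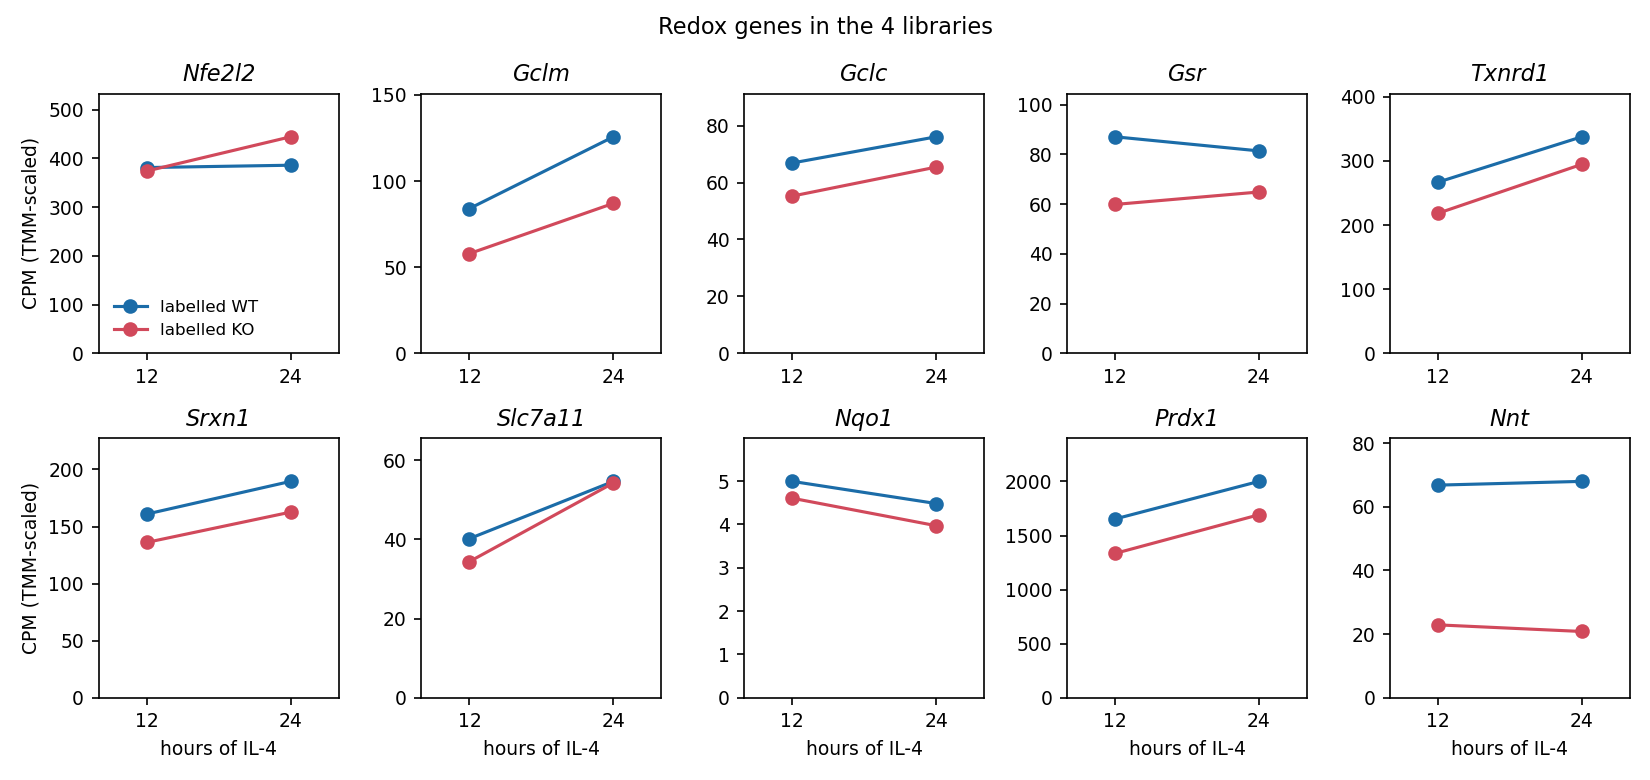
TMM-scaled CPM of each redox gene against hours of IL-4, with 1 point per library and lines joining the 2 libraries of a genotype label. Nnt separates the labels (66.8 and 68.0 CPM in WT, 22.9 and 20.8 CPM in KO), while Gclm is higher at 24 h in both.

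NRF2 itself comes first. Nfe2l2 (chromosome 2, 75675513 to 75704641, minus strand, GRCm38) had 381 CPM at 12 h and 386 at 24 h in the WT libraries, against 374 and 444 CPM in the KO libraries. The library labelled KO at 24 h was the highest and the other 3 lay close together. It was called neither for genotype (log2 0.09, SE 0.07, edgeR adjusted p = 0.504) nor for time (log2 0.13, SE 0.07, edgeR adjusted p = 0.412). Between single libraries, the 24 h fold of KO over WT was 1.15, with an exact 95% counting interval of 1.13 to 1.18, and the 12 h fold 0.981 (0.959 to 1.003). The 12 h direction turned with scaling by library totals alone (log2 0.02 against -0.03). So did that of 24 h over 12 h in WT (log2 -0.0038 against 0.02), and both turned with deposited FPKM. The genotype-by-time difference was not tested, since it is the model's residual.

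Gclm and Gclc encode the modifier and catalytic subunits of glutamate-cysteine ligase, the rate-limiting enzyme of glutathione synthesis. Gclm (chromosome 3, 122245557 to 122270732, plus strand) had 84.0 CPM at 12 h and 126 at 24 h in the WT libraries, against 57.9 and 87.1 CPM in the KO libraries. KO was below WT at each time by nearly the same proportion, and both genotypes were higher at 24 h. The genotype difference was log2 -0.53 (SE 0.08, edgeR adjusted p = 1.47e-05) and the time difference log2 0.58 (SE 0.08, adjusted p = 2.01e-05). With only genotype in the model, the fold of Gclm was log2 -0.21 without WT 24 h and -0.27 without KO 12 h, where it was not called (edgeR adjusted p = 0.909 and 0.353). It was -0.79 without WT 12 h and -0.86 without KO 24 h, where it was called. With only time in the model and a library left out, its time fold ran from log2 0.30 to 0.88. The lowest was without WT 24 h and the highest without WT 12 h. Both sets of folds mix genotype with time. The 24 h library was 1.50-fold over the 12 h library in WT (1.43 to 1.56) and 1.50-fold in KO (1.43 to 1.59).

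Gclc (chromosome 9, 77754535 to 77794485, plus strand) had 66.9 CPM at 12 h and 76.1 at 24 h in the WT libraries, against 55.2 and 65.4 CPM in the KO libraries. Both KO libraries lay below both WT libraries, as they did for 3 of the 10 genes and for 23.1% of all genes tested. The genotype difference of log2 -0.25 (SE 0.08) did not pass (edgeR adjusted p = 0.0587), although it passed with a minimum of 5 CPM (0.0498) and, with only genotype in the model, without KO 24 h (0.0406), and neither did that for time (log2 0.22, SE 0.08, adjusted p = 0.237). The 2 subunits did not keep 1 ratio. Gclm over Gclc in FPKM was 2.13 in WT and 1.77 in KO at 12 h, and 2.80 in WT and 2.25 in KO at 24 h, with no test of this ratio.

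Slc7a11 (chromosome 3, 49892526 to 50443614, minus strand) encodes the transporter chain that imports cystine, the source of cysteine for glutathione. It had 40.2 CPM at 12 h and 54.7 at 24 h in the WT libraries, against 34.4 and 54.3 CPM in the KO libraries. The 24 h libraries were nearly equal and both above the 12 h libraries. The time difference was log2 0.55 (SE 0.09, edgeR adjusted p = 0.000392), and genotype was not called (log2 -0.12, SE 0.09, adjusted p = 0.530). With only time in the model, Slc7a11 was not called for time. With a library left out of that fit, its time fold ran from log2 0.44 to 0.66, and such folds mix genotype with time. At 12 h KO was 0.856-fold of WT (0.796 to 0.919), and at 24 h 0.993-fold (0.933 to 1.06). The 24 h direction of Slc7a11 turned with scaling by library totals alone (log2 0.05 against -0.01) and with deposited FPKM (log2 0.04).

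Gsr (chromosome 8, 33652523 to 33698163, plus strand) encodes glutathione reductase, which returns oxidized glutathione to its reduced form with NADPH. It had 87.0 CPM at 12 h and 81.4 at 24 h in the WT libraries, against 59.8 and 64.8 CPM in the KO libraries. Both KO libraries were below both WT libraries, with the wider gap at 12 h. The genotype difference was log2 -0.43 (SE 0.08, edgeR adjusted p = 0.000559), and time was not called (log2 0.0080, SE 0.08, adjusted p = 0.990). With only genotype in the model, the genotype fold of Gsr ran from log2 -0.38 to -0.49 with a library left out, and the call was lost without WT 12 h (edgeR adjusted p = 0.225) and without WT 24 h (0.0972).

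On the thioredoxin side, Txnrd1 (chromosome 10, 82833951 to 82897712, plus strand) encodes the cytosolic thioredoxin reductase, a selenoprotein. It had 267 CPM at 12 h and 338 at 24 h in the WT libraries, against 218 and 295 CPM in the KO libraries. Within each time KO was the lower library, and within each genotype 24 h was the higher. Genotype gave log2 -0.24 (SE 0.07, edgeR adjusted p = 0.0129) and time log2 0.39 (SE 0.07, adjusted p = 0.000452). DESeq2 did not call it for genotype (adjusted p = 0.0658), nor did edgeR with library totals alone (adjusted p = 0.0937), in a range of 0.00665 to 0.994 over its 11 alternatives. With only genotype in the model, the fold of Txnrd1 was log2 -0.04 without KO 12 h, -0.06 without WT 24 h, -0.40 without WT 12 h and -0.47 without KO 24 h, and only the last was called. With only time in the model and a library left out, its time fold ran from log2 0.25 to 0.54. The lowest was without KO 12 h and the highest without WT 12 h. Both sets of folds mix genotype with time.

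Prdx1 (chromosome 4, 116685544 to 116700822, plus strand) had 1653 CPM at 12 h and 2001 at 24 h in the WT libraries, against 1335 and 1692 CPM in the KO libraries. The order from lowest to highest was KO at 12 h, WT at 12 h, KO at 24 h and WT at 24 h, as it was for Gclm, Txnrd1 and Srxn1. Genotype gave log2 -0.28 (SE 0.06, edgeR adjusted p = 0.000924) and time log2 0.31 (SE 0.06, adjusted p = 0.001). Fitted with genotype alone, the fold of Prdx1 was log2 -0.11 without KO 12 h, -0.13 without WT 24 h, -0.40 without WT 12 h and -0.45 without KO 24 h, and only the last was called. With only time in the model and a library left out, its time fold ran from log2 0.16 to 0.47. The lowest was without KO 12 h and the highest without WT 12 h. Both sets of folds mix genotype with time. With 54500 to 72326 counts its single-library folds were the most tightly bounded of the 10, with KO at 0.807-fold of WT at 12 h (0.798 to 0.817) and 0.846-fold at 24 h (0.837 to 0.855).

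Srxn1 (chromosome 2, 152105516 to 152111376, plus strand) encodes sulfiredoxin, which repairs overoxidized peroxiredoxins. It had 161 CPM at 12 h and 190 at 24 h in the WT libraries, against 136 and 163 CPM in the KO libraries. KO was the lower library at each time. The genotype difference was called at log2 -0.23 (SE 0.07, edgeR adjusted p = 0.0333), and the time difference of log2 0.25 (SE 0.07) was not (adjusted p = 0.0630). The genotype call was lost with DESeq2 (adjusted p = 0.146), with library totals alone (0.140) and with TMM recomputed after the filter (0.0530), in a range of 0.0243 to 0.967 over 11 alternatives. Modelled by genotype alone, the fold of Srxn1 was log2 -0.11 without KO 12 h and without WT 24 h. It was -0.34 without WT 12 h and -0.36 without KO 24 h, and these folds mix genotype with time. Prdx1 over Srxn1 in FPKM stayed between 23.6 and 25.4 in the 4 libraries.

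Nqo1 (chromosome 8, 107388225 to 107403206, minus strand) had 4.99 CPM at 12 h and 4.48 at 24 h in the WT libraries, against 4.60 and 3.97 CPM in the KO libraries. The 4 libraries lay close together, with few counts behind each. It was called neither for genotype (log2 -0.14, SE 0.23, edgeR adjusted p = 0.805) nor for time (log2 -0.18, SE 0.23, adjusted p = 0.835). At this depth the KO library at 12 h was 0.922-fold of WT with a counting interval of 0.753 to 1.13, so differences of the size seen in Srxn1 were not detectable.

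Nnt encodes the mitochondrial transhydrogenase, which makes NADPH from NADH with the proton gradient and so feeds the mitochondrial glutathione and thioredoxin systems. GENCODE M21 has 2 models named Nnt, the first at chromosome 13, 119335448 to 119408997, minus strand. Nnt had 2757 counts at 12 h and 2458 at 24 h in the WT libraries, against 936 and 777 counts in the KO libraries. It was the gene of the 10 with the largest genotype difference, log2 -1.62 (SE 0.09, edgeR adjusted p = 1.13e-13). WT was 2.91-fold over KO at 12 h (2.71 to 3.14) and 3.26-fold at 24 h (3.01 to 3.54). It was called for genotype under all 11 alternatives, with adjusted p from 1.17e-58 to 6.06e-05, and not called for time (log2 -0.05, SE 0.09, adjusted p = 0.902). C57BL/6J mice carry a deletion within Nnt, and gene counts do not show which exons were read. The strain behind either label is not stated, so for Nnt strain and genotype label cannot be told apart, and this was not tested.

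**Figure D3:**
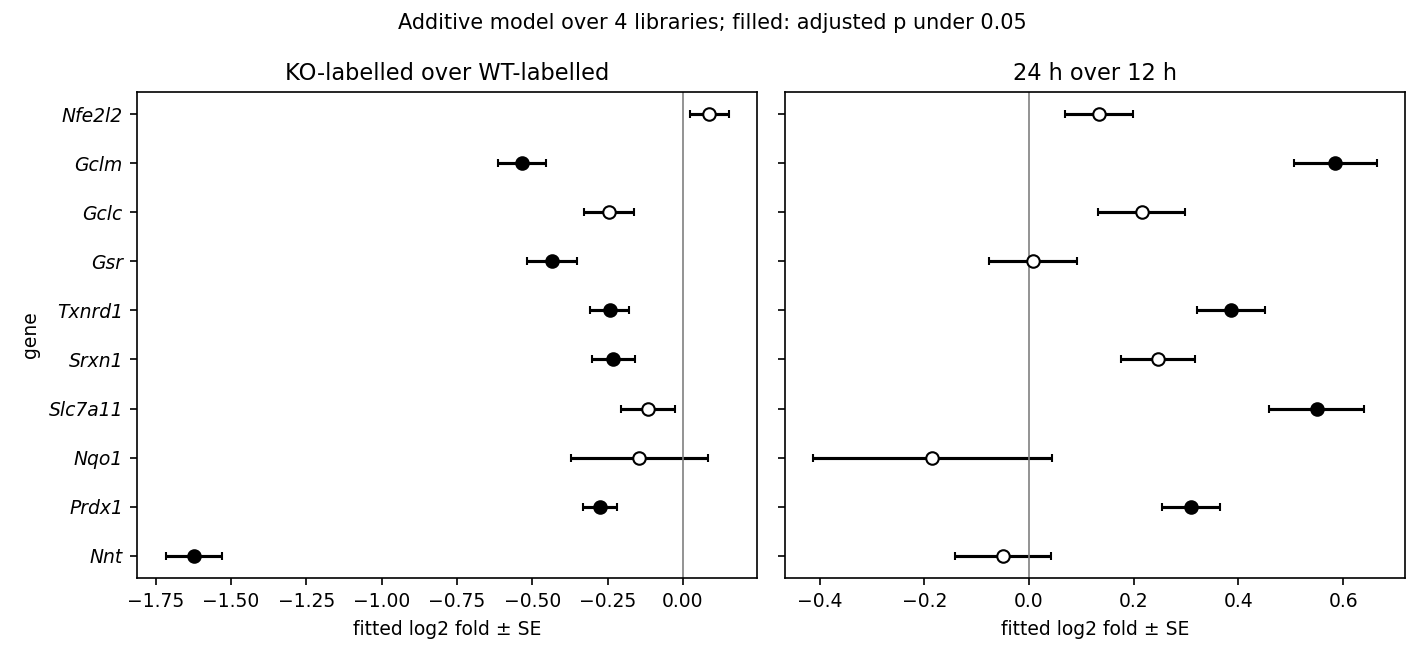
Fitted log2 folds with standard errors for genotype (left) and time (right) from the additive edgeR model over 4 libraries. Nnt stands at -1.62 for genotype, and filled points mark adjusted p under 0.05 (6 genes for genotype, 4 for time).

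The single-library folds show the same values without the model. With TMM scaling, all 10 genes were below WT at 12 h in the library labelled KO, beside 50.3% of all genes, and 9 with library totals alone, where Nfe2l2 turned. At 24 h 9 of 10 were below with TMM scaling, beside 51.6%, with Nfe2l2 the exception, and 8 with library totals alone, where Slc7a11 turned too. KO was below WT at both times for 9 of 10 genes with TMM scaling, beside 32.1% of all genes tested, and for 8 with library totals alone. The 24 h library was above the 12 h library for 8 of 10 genes in WT with TMM scaling (49.4% of all genes), and for 7 with library totals alone, where Nfe2l2 turned. In KO it was above for 8 of 10 under both scalings (48.6% of all genes with TMM). Each library enters 1 genotype fold and 1 time fold, so these counts are not independent. They also include folds whose counting interval spans 1. For KO below WT these were Nfe2l2 and Nqo1 at 12 h, and Nqo1 and Slc7a11 at 24 h. For 24 h above 12 h in WT they were Nfe2l2 and Nnt.

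**Figure D4:**
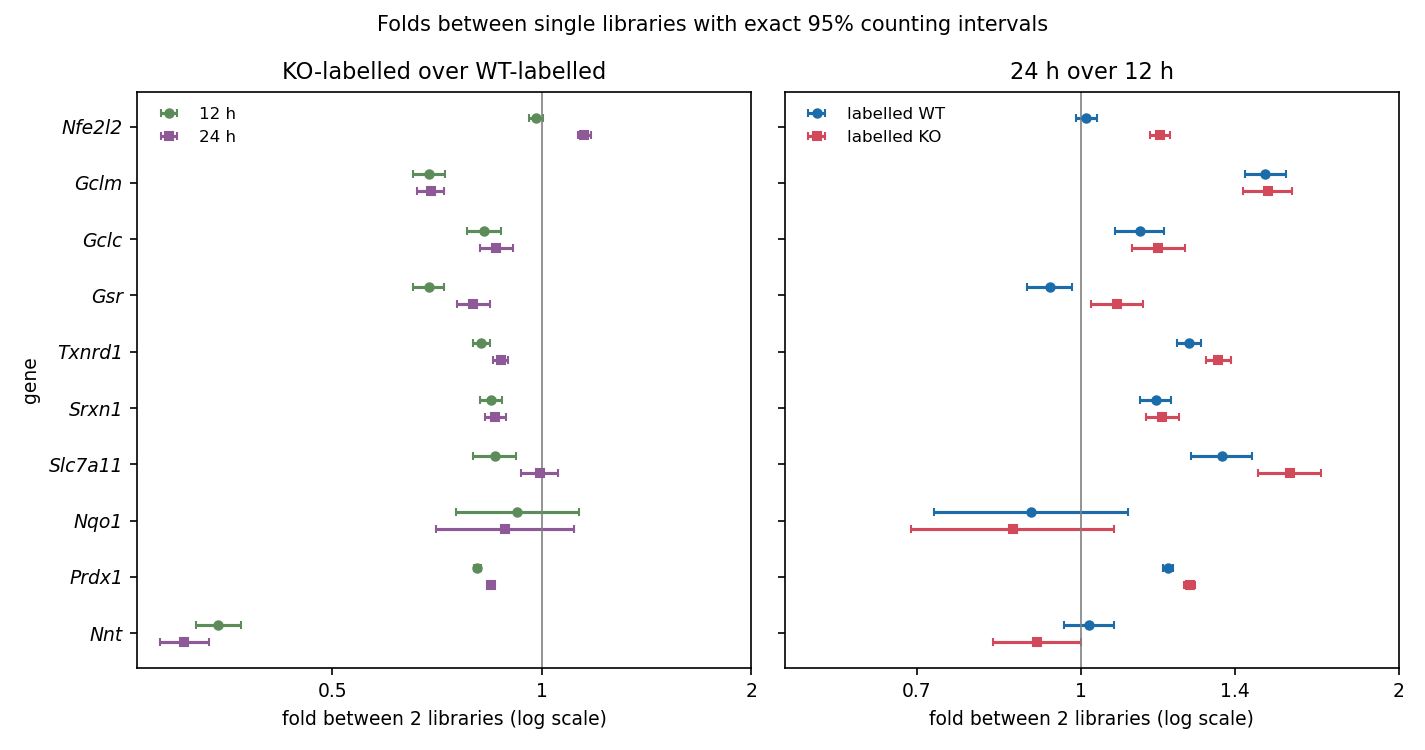
Folds between 2 libraries on a log2-spaced axis, KO over WT at each time (left) and 24 h over 12 h in each genotype (right), with exact 95% counting intervals. Gclm has 1.50-fold for time in both genotypes, while Nfe2l2 has 1.01-fold in WT and 1.19-fold in KO.

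By the distance between centred log2 profiles over the 4 libraries, among 9236 genes with a mean of at least 5 CPM, the genes most like Nnt were Itgad (distance 0.30), Colec12 (0.35) and C4b (0.38). Itgad, an integrin chain gene, had 52.3 and 66.7 CPM in WT and 16.9 and 18.1 CPM in KO at 12 h and 24 h. The genes most like Gclm were Cd14 (0.08), Ly75 (0.13) and Dapk1 (0.14). Cd14, the co-receptor for lipopolysaccharide, had 43.0 and 63.9 CPM in WT and 27.4 and 42.7 CPM in KO. These likenesses rest on 4 points and describe the libraries.

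The wider redox system was examined in 8 lists of 126 genes, of which 121 were in the table and 114 were tested. For genotype 20 were called lower and 4 higher, where 5.34% and 4.18% of all genes tested were, and the median log2 fold over the 114 genes was -0.02, beside -0.0025 over all genes tested. For time 5 were higher and 0 lower, where 0.955% and 1.13% of all genes tested were, with a median of 0.01. In a list of 10 to 20 genes the genotype shares come to at most about 1 call per direction, so a count of 1 is no result about a list. With only genotype in the model the 24 genotype calls became 3, and dropping a library from that fit gave 3 without WT 12 h, 5 without KO 12 h, 1 without WT 24 h and 15 without KO 24 h. DESeq2 with both terms called 16 lower and 2 higher for genotype. Among genes named below as called, it did not call Mafg, Abcc1, Slc1a5, Cat, Sod3 and Ftl1 for genotype (DESeq2 adjusted p from 0.0878 to 0.528). Library totals alone gave 13 lower and 4 higher. With only time in the model the 5 time calls became 0, as did the time calls over all genes tested.

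**Figure D5:**
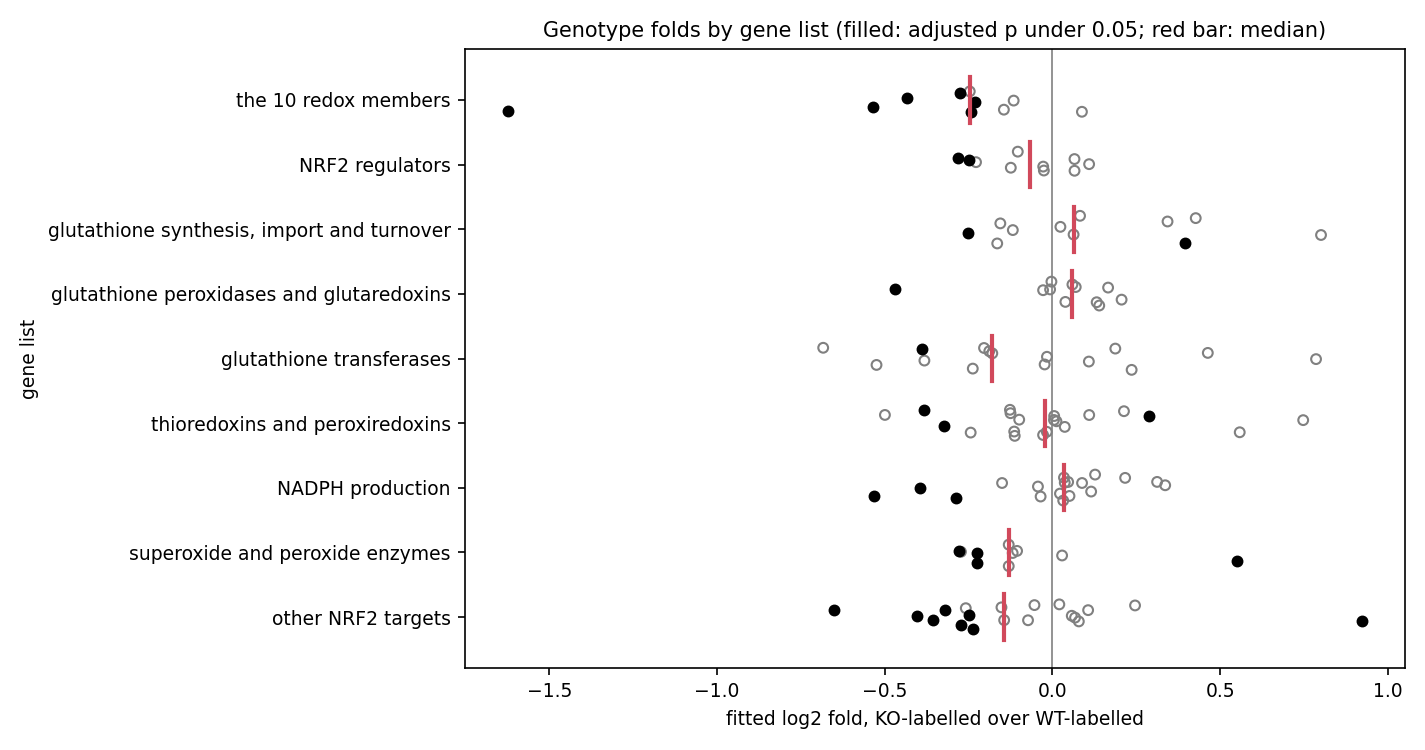
Fitted log2 folds of KO over WT for the 10 redox genes and the 114 tested genes of 8 redox lists, 1 point per gene, filled where the adjusted p is under 0.05, with the list's median as a red bar. Called genes lie mostly left of 0 (20 lower and 4 higher in the lists), while most list medians lie near 0.

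Among regulators of NRF2, 2 of 10 were called lower and 0 higher (median log2 -0.07). They were Sqstm1, an autophagy receptor that binds KEAP1 (log2 -0.25, SE 0.06, edgeR adjusted p = 0.00408), and Mafg, a small MAF partner of NRF2 (log2 -0.28). Keap1 and Bach1, a repressor at the same elements, were not called. For time 0 of 10 were called, with Sqstm1 at log2 0.19 and Nfe2l1 at log2 -0.03.

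In glutathione synthesis, import and turnover 1 of 11 tested was lower, Abcc1, which exports glutathione conjugates (log2 -0.25), and 1 was higher, the amino acid transporter gene Slc1a5 (0.40). Slc3a2, the partner chain of the cystine transporter, was at log2 -0.12 and was not called (edgeR adjusted p = 0.284). For time 0 of 11 were called. Of 11 peroxidases and glutaredoxins tested, Gpx3, the secreted glutathione peroxidase, was the 1 called, lower by log2 -0.47 (SE 0.10, adjusted p = 0.00186). It had 35.5 and 36.7 CPM in WT and 25.2 and 27.0 CPM in KO at 12 h and 24 h. Gpx1 and Gpx4, cellular glutathione peroxidases, were not called for genotype (log2 0.14 and -0.0032) or time. Of 15 glutathione transferases tested, Gstm1 was the 1 called, lower for KO (log2 -0.39, SE 0.06, adjusted p = 6.52e-05) and higher at 24 h (0.25, adjusted p = 0.0301). It shares sequence with the other mu-class genes, so its value is uncertain.

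Of 20 thioredoxin and peroxiredoxin genes 2 were lower for KO and 1 higher (median log2 -0.02). The lower were Txn1, thioredoxin itself (log2 -0.32, SE 0.07, edgeR adjusted p = 0.00268), and Msrb1, a methionine sulfoxide reductase (log2 -0.38). The higher was Txnip, which binds and inhibits thioredoxin, at 0.29 (SE 0.07, adjusted p = 0.00301), with 235 and 231 CPM in WT and 284 and 285 CPM in KO at 12 h and 24 h. For time 0 of 20 were called, with Msrb1 at log2 0.25 (adjusted p = 0.0517). Of 18 tested genes of NADPH production and the pentose phosphate route 3 were lower and 0 higher for KO, while the list's median was log2 0.04. The 3 were H6pd (log2 -0.53, SE 0.08, adjusted p = 2.57e-05), Pgd (log2 -0.29) and Taldo1 (log2 -0.40), enzymes of the pentose phosphate route, H6pd in the endoplasmic reticulum. G6pdx, the rate-limiting enzyme of that route, was not called for genotype (log2 -0.04) and was higher at 24 h (0.29, SE 0.06, adjusted p = 0.00922).

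Of 10 superoxide and peroxide genes tested 3 were lower for KO and 1 higher. Cybb and Ncf1, subunits of the phagocyte NADPH oxidase, were lower by log2 -0.23 (SE 0.06, edgeR adjusted p = 0.00952) and log2 -0.28. Cat, catalase, was lower for KO (log2 -0.22) and higher at 24 h (0.58, SE 0.06, adjusted p = 3.39e-07), with 467 and 657 CPM in WT and 376 and 598 CPM in KO at 12 h and 24 h. Sod3, the extracellular superoxide dismutase, was higher for KO (0.55, SE 0.15, adjusted p = 0.0154).

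Of 19 other NRF2 targets 7 were lower for KO and 1 higher, and 2 were higher at 24 h. This list overlaps one already examined on these samples and is not independent evidence. Slc40a1, the iron exporter ferroportin, was lower by log2 -0.65 (SE 0.09, edgeR adjusted p = 4.96e-06), and Fth1 and Ftl1, the ferritin chains, by log2 -0.27 and log2 -0.32. Ferritin genes have processed copies in the genome, so their counts are uncertain. Hmox1, the heme-degrading enzyme, was lower by log2 -0.40, and Hmox1 and Fth1 were the 2 higher at 24 h (0.29 and 0.21). Ephx1, a microsomal epoxide hydrolase, went the other way, higher by 0.92 (SE 0.11, adjusted p = 6.73e-07), with 18.9 and 18.6 CPM in WT and 31.6 and 39.9 CPM in KO.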

How the data were processed

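The submitters' processing notes name StringTie 1.3.0, HISAT2, edgeR and the mm10 build without their roles. The authors deposited whole-number counts and FPKM per gene symbol and library. For 12750 genes with counts in every library, count over FPKM followed the library totals within a relative deviation of 5.93e-06, so the FPKM carry no further scaling. Positions are from GENCODE M21 (GRCm38). How reads in overlapping genes were counted is not given in the sources used here. Txnrd1 overlaps Eid3 on the same strand (7 to 12 counts per library in its own row). Loci with no row of their own also overlap members on the same strand. They are Gm6061 in Gclm, Gm37692 and Gm37498 in Slc7a11, Gm24996 in Nfe2l2 and Gm24727 in Gsr. Without stated strand handling, reads of Gclm, Txnrd1 and Slc7a11 cannot be told apart from those of loci on the opposite strand.

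Computed here: TMM scaling over all genes, then edgeR 4.0.16 (R 4.3.3) quasi-likelihood tests, two-sided, for each term of a genotype plus time model over 4 libraries. P-values were adjusted by Benjamini-Hochberg over the 10993 genes that reached 1 CPM in 2 or more libraries. A gene is called at an adjusted p under 0.05. With 1 residual degree of freedom, the difference of genotype effects between times and noise are one term. The test adds 27.8 prior degrees of freedom taken from the spread of other genes. The p-values and standard errors therefore rest mostly on that shared spread, not on replicates of each gene. The standard error (SE) is the log2 fold over the square root of F. Folds between single libraries carry exact 95% binomial intervals, which cover counting error only, and log2 ratios use a pseudocount of 1 CPM. On simulated data the genotype test, run on 10931 genes, recovered 56 of 65 genes changed 1.5-fold and called 18 of 10734 unchanged genes. The time test, run on 10939 genes, recovered 52 of 66 and called 1 of 10740. Every simulated gene had the same negative binomial dispersion, 0.006, close to the estimate from these data, and no genotype-by-time difference. Changes under 1.5-fold, such as those fitted for Txnrd1, Srxn1 and Prdx1, were not simulated.

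Members and lists were chosen with earlier results of these data known. Named genes are the 10 members and, per list, up to 4 called genes per direction for genotype and 3 for time, or the 2 with the highest FPKM where none was called. Keap1, Bach1 and, for genotype, Gpx1, Gpx4, Slc3a2 and G6pdx were named after their values were seen. Alternatives were DESeq2 1.42.0, other scalings, filters, pseudocounts, models and leaving out a library.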

Additional observations from a re-analysis of the deposited data

Results flagged for a closer look

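Gsr, the glutathione reductase gene, moved in opposite directions with time in the 2 genotypes. The 24 h library was 0.935-fold of the 12 h library in WT (exact 95% counting interval 0.890 to 0.982) and 1.08-fold in KO (1.02 to 1.15). Ftl1, the ferritin light chain gene, was 1.24-fold higher at 24 h in WT (1.23 to 1.24) and 0.996-fold in KO (0.992 to 0.9999). Neither difference was tested, since each group has 1 library and the intervals cover counting error only.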

How the results depend on the processing

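The cause of the changes below was not tested, unless stated. The 6 redox genes called for genotype became 2 with only genotype in the model and 1 to 7 with a library left out as well. Besides Nnt, Gclm was called without WT 12 h and Gsr without KO 12 h. DESeq2 called 4, as did library totals alone. Among the wider pathway genes, DESeq2 called 18 for genotype and library totals alone 17. The 24 wider pathway genes became 3 with only genotype in the model and 1 to 15 without a library. The 4 redox genes and 5 pathway genes called for time became 0 with only time in the model. So did the 229 time calls over all genes. By construction a fit with 1 term over all 4 libraries puts the left-out term into the spread. With a library left out as well, the design is unbalanced and part of that term enters the fold too. The genotype fold of Gclm ran from log2 -0.86 to -0.21 in such fits. The 5 pathway time calls were 3 with DESeq2, 2 with library totals alone, 12 with no filter and 9 with a minimum of 5 CPM. TMM recomputed after the filter, chosen after seeing the data, gave 5 and 4 redox genes for genotype and time. Over all genes, calls for genotype were 1046, and 516 by DESeq2, 259 with only genotype in the model and 146 to 576 with a library left out as well.

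Signs turned for 4 fitted folds, none of them called. These came from fits with only the tested term in the model and a library left out. The genotype fold of Nfe2l2 ran from log2 -0.037 to 0.21 and that of Slc7a11 from log2 -0.46 to 0.20. The time fold of Gsr ran from log2 -0.25 to 0.29 and that of Nnt from log2 -1.11 to 0.95. Such fits are unbalanced, so by construction these folds mix genotype with time. The time fold of Gsr was also below 0 with library totals (-0.0092) and with only time in the model (-0.0067). Library totals alone moved the median genotype fold of all genes to log2 0.05. Of 200 single-library ratios under other settings 176 moved by at most 0.5 of the width of their counting interval. Nqo1 could not be fitted at a minimum of 5 CPM. No paired analysis was possible because each group has 1 library and so no replicate number to block on; the model with time as a term already sets KO against WT within each time.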
